A study of Mus musculus with 12 samples.

Results

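The response of dendritic cells to lipopolysaccharide (LPS) in the presence of amyloid-β (Aβ) oligomers was read from 3 “Aβ+LPS” and 3 “Aβ” libraries, 6 of the 12 RNA sequencing libraries of the study. The libraries were chosen by their treatment labels and not by any expression value. Each gene with a mean normalised count of at least 10 in Aβ or in Aβ+LPS entered the test, which left 13806 of 53465 listed genes. The study set out to find how oligomeric Aβ1-42, a soluble aggregate of the peptide that accumulates in Alzheimer's disease, alters the transcription of antigen-presenting cells. All libraries came from bone marrow-derived dendritic cells (BM-DCs) of wild type C57BL/6 mice (C57BL/6J in the study’s methods) at postnatal week 12, grown from marrow progenitors in GM-CSF for 9 days. “Ctrl” cells received nothing further. “LPS” cells received LPS at 100 ng/ml for 18 h. “Aβ” cells received oligomeric Aβ1-42 at 0.5 μM for 4 d, and “Aβ+LPS” cells received the same oligomers, from day 8 of culture, and the same 18 h of LPS. In the study's scheme the 4 d of oligomers began 1 day before LPS, so the LPS step fell within the 4 d. With 4 d from day 8 the culture ran past the 9 days of growth. The 18 h of LPS can thus have ended before RNA was taken. The peptide was human and recombinant, each agent was given at 1 dose. No label states that the 3 libraries of a group came from separate animals or cultures, so p-values measure only the spread between these libraries, which may be technical.

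LPS, a component of the outer membrane of Gram-negative bacteria, is detected by TLR4 together with MD-2 and CD14. An adaptor branch through MyD88 drives NF-κB and the genes of inflammatory cytokines, and a branch through TRIF drives type I interferon, which acts back on the cells through its receptor and raises a large set of antiviral genes. Maturing dendritic cells also raise CCR7, chemokines and co-stimulatory ligands, and they leave the cell cycle.

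Each library held between 23415609 and 29690965 reads in genes, and libraries of 1 group differed by more than sampling noise, 3.10 to 12.95 times the variance of counting. Itgax, which codes for the dendritic cell integrin CD11c, was at 23788, 24294 and 24767 normalised counts in Aβ and at 25269, 24114 and 25370 in Aβ+LPS, whereas the dendritic cell lectin gene Cd209a had no read in either group. Summed markers of macrophages were at 3094 to 3210 CPM (counts scaled to a common library total) in Aβ and 3109 to 3159 CPM in Aβ+LPS, with Cd163 at 0, and those of conventional dendritic cells at 4761 to 4995 and 4834 to 5148 CPM. Both pairs of ranges overlapped. In such bulk libraries, fewer cells of a type and less RNA per cell cannot be told apart.

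Few transcripts differed beyond the spread when LPS was added to oligomer-treated cells. Of the 13806 genes, 20 passed the test (limma, adjp below 0.05), or 0.145%. Of these, 4 were higher (0.029%) and 16 were lower (0.116%) in Aβ+LPS. The libraries of both groups did not overlap for any of the 20, and the smallest change among them was 0.22 on the log2 scale. At an unadjusted p below 0.05, 369 genes were higher and 505 were lower. The median absolute log2(fc) was 0.065 over all genes tested, against a median SE of 0.083, and for 12427 genes (90.0%) the 95% interval of the log2(fc) lay within −1 and 1. The number of calls moved with the libraries and the tool that set the spread: a fit of the 6 libraries alone called 37 genes higher and 50 lower, and DESeq2 on the recovered reads called 17 higher and 30 lower. Leaving out Ctrl replicate 2 from the fit of 12 libraries raised the lower calls to 31. Leaving out any of the 6 compared libraries gave 1 to 3 higher and 6 to 13 lower calls. The lower calls were 8, 6 and 7 without Aβ replicates 1, 2 and 3 in turn, and 10, 6 and 13 without Aβ+LPS replicates 1, 2 and 3. Of the 20 genes, 9, 13 and 12 lost the call without Aβ replicates 1, 2 and 3, 12, 15 and 5 without Aβ+LPS replicates 1, 2 and 3, and 5 each without Ctrl replicate 1 or LPS replicate 1. Oas3, Rrm2, Mrc1 and Ccl6 kept it in 23 of 24 alternatives, all but the fit without the intensity trend, and Ighv1-4 kept it in each of the 23 that gave it an adjusted p.

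**Figure D1:**
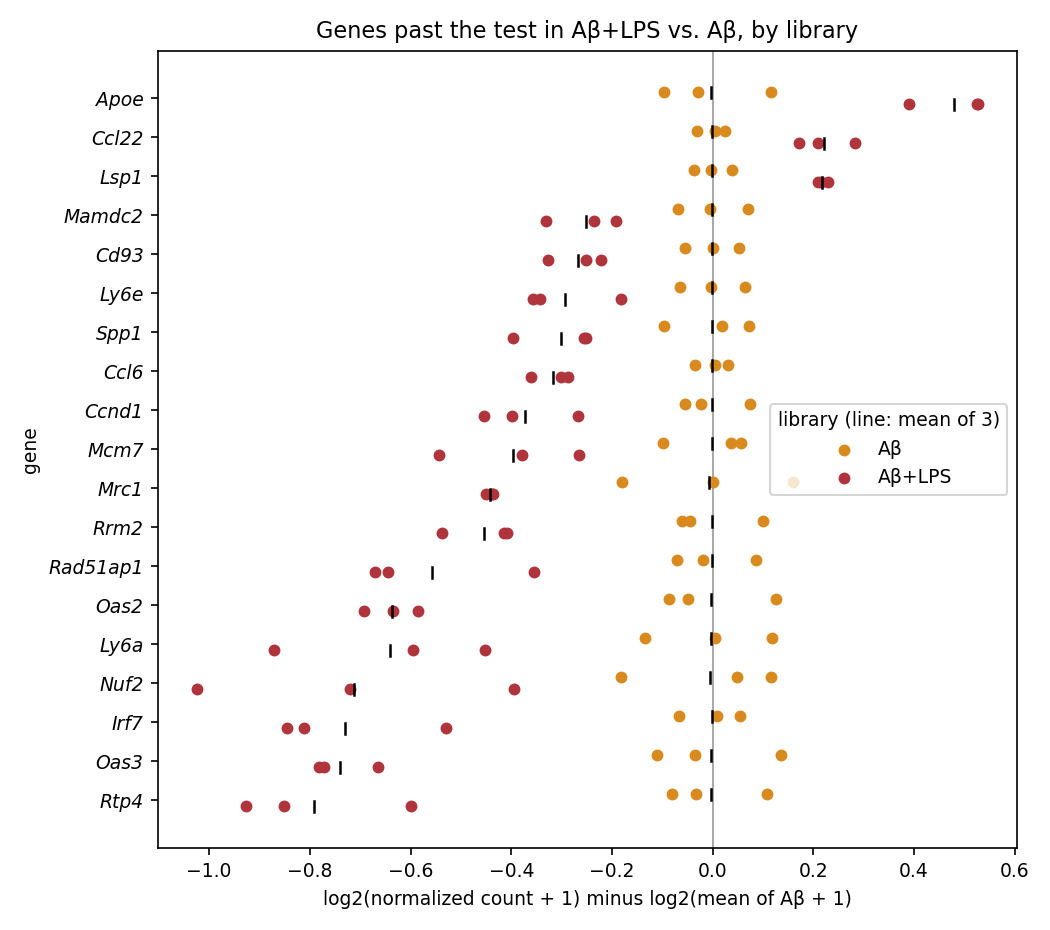
Level of each gene past the test in Aβ+LPS vs. Aβ, except Ighv1-4, by library, as log2(normalised count + 1) minus the log2 of the Aβ mean; points are libraries (orange Aβ, red Aβ+LPS) and black ticks are group means. The 3 genes at the top lie to the right of their Aβ libraries and the 16 below lie to the left, with no overlap between the groups.

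Most interferon-stimulated genes had lower levels in Aβ+LPS, few of them past the test. Of 45 tested genes of a list of type I interferon and antiviral genes, 4 were lower past the test (limma) and 0 were higher. At an unadjusted p below 0.05 the counts were 37 lower and 0 higher. That threshold took 505 lower and 369 higher of all 13806 genes, which is the background for the unadjusted counts of every list below. For the interferon list, edgeR called 7 lower and 0 higher, and DESeq2 called 12 lower and 0 higher. In 36 of the 45 (80.0%) each Aβ+LPS library lay below each Aβ library, against 6.66% of all genes tested, and in 0 each lay above, against 7.16%. The median log2(fc) of the list was −0.28, against 0.0038 over all genes tested, and 42 of the 45 values were negative. The summed level of the list was 3275 to 3436 CPM in the Aβ libraries and 2641 to 2824 CPM in the Aβ+LPS libraries.

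The oligoadenylate synthetases sense double-stranded RNA and activate RNase L, and Oas3 had the lowest adjp of the 20 genes. Oas3 was at 1642, 1847 and 1558 normalised counts in Aβ and at 978, 985 and 1061 in Aβ+LPS. Each Aβ library was thus far above each Aβ+LPS library, and the mean fell by 40.1% [log2(fc) = −0.74 ± 0.09 (SE), adjp = 0.000518, limma]. Oas2 was at 401, 453 and 391 counts in Aβ and at 256, 267 and 277 in Aβ+LPS [log2(fc) = −0.63 ± 0.10, adjp = 0.00746]. These groups were apart as well. Of the 6 measured members of the family, 5 had all Aβ+LPS libraries below all Aβ libraries; the exception was Oasl1. Over all genes tested 6.66% lay wholly below.

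Irf7, the transcription factor that amplifies interferon production, was at 2444, 2524 and 2321 counts in Aβ and at 1384, 1351 and 1683 in Aβ+LPS [log2(fc) = −0.73 ± 0.15, adjp = 0.0485]. The 3 Aβ+LPS libraries were all lower, and the adjp ranged from 2.7e-08 in the fit of 6 libraries to 0.50 over the alternatives. The Ctrl libraries, which enter the estimate of the spread in the fit of 12, were at 526, 356 and 683 counts. Rtp4, an interferon-induced chaperone of receptors, was at 858, 946 and 830 counts in Aβ and at 462, 486 and 580 in Aβ+LPS [log2(fc) = −0.79 ± 0.14, adjp = 0.0222]. The groups did not overlap, and −0.79 was the most negative value among the genes past the test. In the same direction outside the list, Ly6a, which codes for the interferon-inducible surface protein Sca-1, was at 684, 740 and 621 counts in Aβ and at 372, 451 and 498 in Aβ+LPS [log2(fc) = −0.64 ± 0.12, adjp = 0.0222]. Its relative Ly6e, an antiviral membrane protein, was at 14479, 15175 and 13881 counts in Aβ and at 11327, 11441 and 12792 in Aβ+LPS [log2(fc) = −0.29 ± 0.05, adjp = 0.0113]. For both, every Aβ+LPS library was below every Aβ library. Oas, Ifit and Ly6 genes have near-identical relatives, so reads shared between copies make their single values uncertain.

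Other members of the list had negative values without passing the test. Ifit1, which binds viral RNA that lacks the host cap, was at 855, 959 and 890 counts in Aβ and at 587, 586 and 665 in Aβ+LPS [log2(fc) = −0.56 ± 0.19, adjp = 0.504]. Isg15, a ubiquitin-like modifier, was at 2727, 2743 and 2381 counts in Aβ and at 1878, 2040 and 2241 in Aβ+LPS [log2(fc) = −0.35 ± 0.14, adjp = 0.618]. Neither gene's libraries overlapped between the groups, and in the fit of the 6 libraries alone both passed, with adjp of 1e-05 for Ifit1 and 0.0013 for Isg15. In that fit 29 of the 45 members were called lower, and without Ctrl replicate 2 the fit of 12 libraries called 16, whereas 2, 1 and 2 were called without Aβ replicates 1, 2 and 3, 1, 1 and 3 without Aβ+LPS replicates 1, 2 and 3, and 0 without the intensity trend. By family, 4 of 5 measured IFIT genes and 3 of 4 cytosolic RNA sensors had Aβ+LPS libraries all below Aβ libraries, against 6.66% of all genes tested. These families were grouped after their values were seen. The 3 members with positive values were Mx1 (0.04), Ifi205 (0.14) and Ifit3b (0.38), each far from the threshold, with adjp of 0.98, 0.98 and 0.93. Usp18, Xaf1 and Phf11d, picked out because edgeR also called them lower, had log2(fc) of −0.39, −0.46 and −0.44 with limma adjp of 0.146, 0.127 and 0.127.

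**Figure D2:**
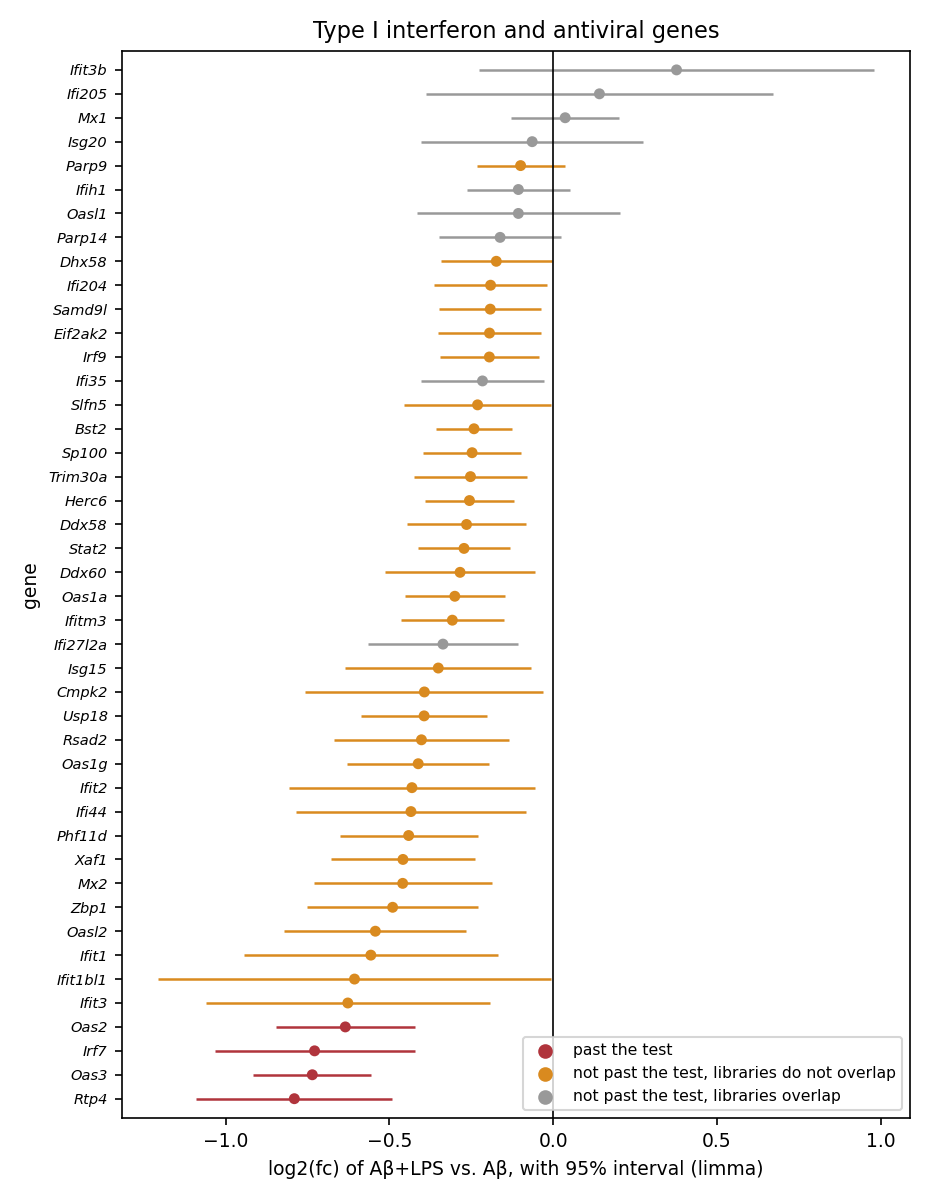
log2(fc) of Aβ+LPS vs. Aβ with its 95% interval for 44 of the 45 tested genes of the type I interferon and antiviral list; red genes passed the test, orange genes did not but had libraries that did not overlap, and grey genes overlapped. Of the 44 values plotted, 41 lie left of 0, and 4 are red.

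The promoters of interferon-stimulated genes carry a repeat of the letters GAAA that is bound by interferon-activated factors. To show it in genes of this set, the 300 bases from 250 before to 50 after the annotated start are printed for Oas3 (chr5:120777610-120777909, minus strand), Isg15 (chr4:156200769-156201068, minus strand) and Ifit1 (chr19:34640639-34640938, plus strand), from RefSeq, build GRCm38.p6. Capitals mark matches to GAAANNGAA or its reverse complement TTCNNTTTC, searched on both strands with overlapping matches joined.
Oas3: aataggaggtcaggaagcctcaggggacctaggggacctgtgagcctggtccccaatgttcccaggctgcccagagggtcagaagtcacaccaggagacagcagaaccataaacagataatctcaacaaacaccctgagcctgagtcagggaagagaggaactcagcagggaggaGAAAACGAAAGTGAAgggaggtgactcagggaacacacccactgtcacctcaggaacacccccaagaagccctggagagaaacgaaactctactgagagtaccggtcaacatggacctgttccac
Isg15: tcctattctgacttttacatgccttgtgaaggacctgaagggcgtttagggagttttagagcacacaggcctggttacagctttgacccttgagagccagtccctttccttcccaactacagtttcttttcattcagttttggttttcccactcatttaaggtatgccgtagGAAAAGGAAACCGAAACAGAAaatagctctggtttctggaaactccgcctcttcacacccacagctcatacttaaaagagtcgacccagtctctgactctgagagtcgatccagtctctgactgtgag
Ifit1: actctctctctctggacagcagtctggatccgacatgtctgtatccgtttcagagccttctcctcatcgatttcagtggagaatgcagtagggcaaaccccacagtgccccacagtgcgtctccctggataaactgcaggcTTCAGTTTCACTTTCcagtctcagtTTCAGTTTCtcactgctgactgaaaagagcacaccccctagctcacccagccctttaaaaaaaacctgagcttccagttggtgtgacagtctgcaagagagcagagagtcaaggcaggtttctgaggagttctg
Oas3 held 2 overlapping matches that began 75 and 69 bases before the start, Isg15 held 3 that began 78, 72 and 66 bases before it, and Ifit1 held 3 on the reverse strand at 109, 103 and 84 bases before it. Irf7 and Ccl22 held none of these letters in the window. Of the 45 interferon genes, 33 had a promoter in the table and 21 of them (63.6%) held a match, against 927 of 10162 (9.12%) of all genes tested. Among the inflammatory cytokine genes 1 of 16 (6.25%) held a match. A match describes the letters and is not a bound site.

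The guanylate binding proteins and immunity GTPases, which attack vacuoles of pathogens and respond mostly to interferon-γ, were tested as a list of their own. Of 14 members, 0 passed the test in either direction with limma, edgeR or DESeq2, 4 were lower and 0 higher at an unadjusted p below 0.05, 6 had Aβ+LPS libraries all below Aβ libraries (42.9%, against 6.66% of all genes tested), and the median log2(fc) was −0.18. Of interferon genes themselves, Ifnb1 was under the count filter, with 1.85, 0 and 0 normalised counts in Aβ and 2.80, 3.45 and 2.04 in Aβ+LPS. The Ifnb1 libraries of Aβ+LPS were higher at a level of a few reads, which allows no test. Summed markers of plasmacytoid dendritic cells, the main interferon producers among blood cells, were at 363 to 378 CPM in Aβ and 323 to 335 CPM in Aβ+LPS, with Siglech and Klk1 at 0 in both groups. Bst2 is in that list and in the interferon list, so this sum is not independent of the interferon genes. Bst2 held most of the reads of the sum in both groups. Its counts were 7269, 7524 and 7045 in Aβ and 6011, 6159.5 and 6295 in Aβ+LPS. The part of these markers in the lower interferon genes was not tested.

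Genes of DNA synthesis and cell division were the other named group among the lower genes. Rrm2, the regulated subunit of ribonucleotide reductase, was at 336, 372 and 333 counts in Aβ and at 260.2, 239 and 261 in Aβ+LPS [log2(fc) = −0.45 ± 0.06, adjp = 0.000993]. Mcm7, a subunit of the replicative helicase, was at 302, 271 and 298 counts in Aβ and at 242, 199 and 223 in Aβ+LPS [log2(fc) = −0.39 ± 0.07, adjp = 0.0222]. The groups were apart for both genes. Nuf2, a kinetochore protein, was at 59.3, 73.1 and 69.8 counts in Aβ and at 32.6, 40.5 and 51.0 in Aβ+LPS [log2(fc) = −0.71 ± 0.14, adjp = 0.0322]. Rad51ap1, which assists homologous recombination, was at 72.3, 69.8 and 77.9 counts in Aβ and at 45.7, 46.5 and 57.1 in Aβ+LPS [log2(fc) = −0.56 ± 0.11, adjp = 0.0405]. Their Aβ+LPS libraries were all below the Aβ libraries at low counts, and edgeR called neither, with adjp of 0.10 and 0.15. Ccnd1, the cyclin that starts the G1 phase, was at 1029, 1052 and 1124 counts in Aβ and at 888, 779 and 810.2 in Aβ+LPS [log2(fc) = −0.37 ± 0.06, adjp = 0.00619]. Its groups did not overlap.

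Of 25 mitosis genes, 1 was lower past the test and 0 were higher (limma; at an unadjusted p below 0.05, 14 lower and 0 higher; edgeR 0 lower and DESeq2 2 lower, both with 0 higher). In 11 of the 25 (44.0%, against 6.66% of all genes tested) the Aβ+LPS libraries lay wholly below, the median log2(fc) was −0.22, and 24 values were negative. The exception was Mki67, a proliferation marker, at 0.02. Of 24 DNA replication genes, 2 were lower and 0 higher past the test (7 lower and 0 higher at an unadjusted p below 0.05, and edgeR and DESeq2 each called 2 lower and 0 higher), 3 lay wholly below (12.5%, against the same 6.66%), and the median was −0.078. The mean of Rrm2 was 2976 in Ctrl and 2643 in LPS, against 347 in Aβ.

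The remaining lower genes were Mrc1, Ccl6, Spp1, Cd93 and Mamdc2. Mrc1, the mannose receptor CD206, was at 673, 762 and 851 counts in Aβ and at 562, 558 and 563 in Aβ+LPS [log2(fc) = −0.43 ± 0.06, adjp = 0.00293]. Ccl6, a chemokine of macrophages, was at 28384, 29195 and 29702 counts in Aβ and at 23598, 22645 and 23829 in Aβ+LPS [log2(fc) = −0.32 ± 0.05, adjp = 0.00293]. Every Aβ+LPS library of these genes was below every Aβ library. Spp1, which codes for osteopontin, was at 114435, 118784 and 105595 counts in Aβ and at 94832, 85820 and 94556 in Aβ+LPS [log2(fc) = −0.30 ± 0.06, adjp = 0.0277]. Cd93, a membrane lectin of myeloid cells, was at 4411, 4588 and 4752 counts in Aβ and at 3929.6, 3653 and 3851 in Aβ+LPS [log2(fc) = −0.27 ± 0.04, adjp = 0.0113]. Mamdc2 was at 1815, 1896 and 1998 counts in Aβ and at 1617, 1513 and 1666 in Aβ+LPS [log2(fc) = −0.25 ± 0.05, adjp = 0.0222]. No libraries overlapped between the groups for these 3 genes. All 5, and Ccnd1, were also lower in LPS vs. Ctrl, with log2(fc) between −0.80 and −1.47.

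Among the 4 genes that rose, Ccl22, a chemokine by which dendritic cells attract regulatory and helper T-cells, was at 53689, 52966 and 51666 counts in Aβ and at 61010.4, 59427 and 64216 in Aβ+LPS [log2(fc) = 0.22 ± 0.04, adjp = 0.0322]. Lsp1, an actin-binding protein of leukocytes, was at 5893, 5596 and 5722 counts in Aβ and at 6659, 6637 and 6726 in Aβ+LPS [log2(fc) = 0.22 ± 0.04, adjp = 0.0117]. Both gains were small and without overlap of the groups. Apoe, the lipid carrier apolipoprotein E, was at 83.4, 75.4 and 71.8 counts in Aβ and at 110.97, 111 and 101.02 in Aβ+LPS [log2(fc) = 0.48 ± 0.08, adjp = 0.0164]. The groups were apart, but Apoe did not pass with edgeR (adjp = 0.15), with DESeq2 (0.075) or in the fit of the 6 libraries (0.21). Means of 4671 in Ctrl and 567 in LPS compared with 76.9 in Aβ, so the Aβ+LPS level stayed far under that of Ctrl.

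The remaining gain rested on immunoglobulin reads. Ighv1-4, a heavy chain variable segment of B-cells, had 0 reads in each Ctrl, LPS and Aβ library and 19, 69 and 159 reads in the Aβ+LPS libraries, or 17.7, 59.5 and 162 normalised counts (limma, adjp = 0.000993). The Aβ+LPS mean was at least 78.6-fold higher than a floor of 3 reads over the Aβ group. It was the 1 gene with an absolute change over 1 on the log2 scale among those past the test. Variable segments have near-identical copies, so the assignment to this segment is uncertain. Summed immunoglobulin genes were at 107, 129 and 149 CPM in the Aβ libraries and at 104, 138 and 267 CPM in the Aβ+LPS libraries, and summed B-cell markers were at 49.2 to 64.1 CPM and 45.4 to 131 CPM, with Ighd at 0. The highest library of both sums was the Aβ+LPS library with the most Ighv1-4 reads, and the part of B-cells in this gain was not tested.

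The cytokine genes for which LPS is best known stood high in the Aβ cells, and none of Il6, Tnf and Ccl5 passed the test with limma. Il6, an inflammatory cytokine, was at 11087, 10394 and 10955 counts in Aβ and at 11491, 13226 and 13396 in Aβ+LPS [log2(fc) = 0.23 ± 0.10, adjp = 0.728]. The groups did not overlap, and DESeq2 (adjp = 0.0207) and the fit of 6 libraries (0.0121) called Il6 higher, whereas edgeR did not (0.052). Its mean was 3.86 counts in Ctrl and 224 in LPS, so the Aβ mean was 48.2-fold the LPS mean. Tnf was at 3347, 3660 and 3160 counts in Aβ and at 3437, 3547 and 3616 in Aβ+LPS [log2(fc) = 0.06 ± 0.05, adjp = 0.935, 95% interval −0.05 to 0.18]. The Tnf libraries overlapped. Ccl5, a chemokine for T-cells, was at 84533, 80712 and 77699.9 counts in Aβ and at 94041, 93144 and 100705 in Aβ+LPS [log2(fc) = 0.24 ± 0.05, adjp = 0.0559], apart between the groups and just outside the threshold. Ccl5 was called higher in 9 of the 24 alternatives, among them edgeR (adjp = 0.0129), DESeq2 (0.000193) and the fit of 6 libraries (0.00661). In LPS vs. Ctrl the same genes had log2(fc) of 5.56 for Il6, 0.94 for Tnf and 8.39 for Ccl5.

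Over a list of 28 tested genes of the classic LPS response, 22 were higher past the test in LPS vs. Ctrl, with a median log2(fc) of 1.12, where 47.2% of all genes tested passed in either direction. In Aβ+LPS vs. Aβ, 0 of the 28 were higher and 1, Irf7, was lower (limma). At an unadjusted p below 0.05, 8 were higher and 5 lower; edgeR called 2 higher and 1 lower, DESeq2 called 4 higher and 0 lower, and the fit of 6 libraries called 5 higher and 3 lower. The median log2(fc) was 0.065, against 0.0038 over all genes tested, and the Aβ+LPS libraries lay wholly above in 11 members (39.3%, against 7.16% of all genes tested) and wholly below in 5 (17.9%, against 6.66%).

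Within the list, Nos2, the inducible nitric oxide synthase, was at 7492, 7522 and 7128 counts in Aβ and at 8861, 9120.4 and 10043 in Aβ+LPS [log2(fc) = 0.34 ± 0.12, adjp = 0.55]. The groups were apart, and edgeR (adjp = 0.0038), DESeq2 (3e-06) and the fit of 6 libraries (4.9e-05) called it higher. Il1b was at 34208, 33762 and 32017 counts in Aβ and at 37536, 36601 and 41393 in Aβ+LPS [log2(fc) = 0.21 ± 0.06, adjp = 0.443], apart between the groups as well. DESeq2 (adjp = 0.0117) and the fit of 6 libraries (0.024) called Il1b higher, and edgeR did not (0.0796). Lcn2, an antimicrobial protein that binds iron carriers, was at 20618, 20159 and 19831 counts in Aβ and at 20262, 20268 and 22937 in Aβ+LPS [log2(fc) = 0.06 ± 0.29, adjp = 0.992], and its libraries overlapped. Il12b, which codes for the p40 chain shared by IL-12 and IL-23, had a log2(fc) of 0.05 with an interval of −0.15 to 0.26, and the acute-phase gene Saa3 had 0.07 with −0.09 to 0.22. The enzymes Ptgs2 and Acod1, which make prostaglandins and itaconate, had log2(fc) of 0.16 and 0.13 (adjp of 0.56 and 0.539). The feedback inhibitors Socs3, Nfkbia, Tnfaip3 and Il1rn had 0.17, 0.12, 0.05 and −0.06, with adjp of 0.618 to 0.931. Sod2, the mitochondrial superoxide dismutase, had 0.02. The chemokine genes Ccl3, Ccl2 and Cxcl10 had 0.11, −0.17 and −0.20. Il10 and Il23a were read at 14.9 to 37.9 counts in all 6 libraries, and Cxcl9 was under the filter, at 3.32 to 6.49 counts in Aβ and 6.89 to 12.2 in Aβ+LPS.

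**Figure D3:**
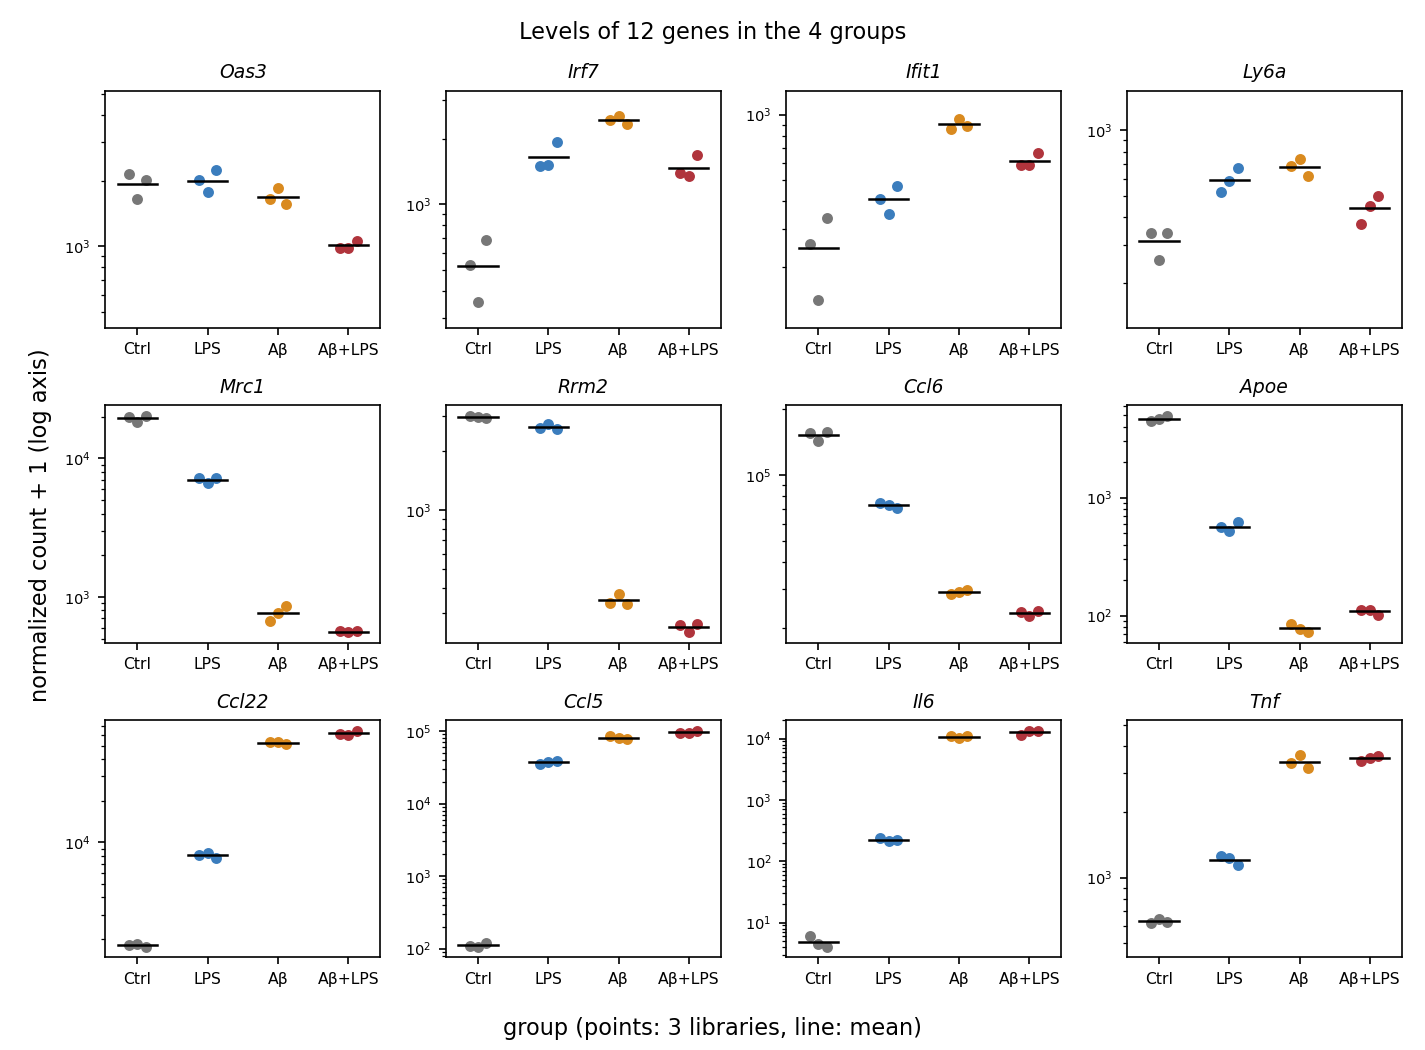
Normalised counts + 1 of 12 genes in the 4 groups on a log axis; points are the 3 libraries of a group and lines are means. The Aβ and Aβ+LPS points of Il6 lie between 10394 and 13396 counts, above LPS at 224 and Ctrl at 3.86, while those of Oas3, Irf7, Ifit1 and Ly6a step down from Aβ to Aβ+LPS.

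Genes of dendritic cell maturation and migration had positive values in 18 of 19 tested members. Of the 19, 1 (Ccl22) was higher and 0 were lower (limma; 6 higher and 0 lower at an unadjusted p below 0.05; edgeR and DESeq2 each called 2 higher and 0 lower). The Aβ+LPS libraries lay wholly above in 12 (63.2%, against 7.16% of all genes tested) and wholly below in 1 (5.26%, against 6.66%), and the median log2(fc) was 0.14. The same list had a median of 1.62 in LPS vs. Ctrl, where 17 genes were higher, against 24.3% of all genes tested. Ccr7, the receptor that guides mature dendritic cells to lymph nodes, was at 4061, 3616 and 3715 counts in Aβ and at 4317, 4394 and 4293 in Aβ+LPS [log2(fc) = 0.19 ± 0.10, adjp = 0.82]. Cd40, a receptor for T-cell help, was at 2429, 2457 and 2208 counts in Aβ and at 2552, 2544 and 2728 in Aβ+LPS [log2(fc) = 0.14 ± 0.11, adjp = 0.931]. Both were apart by narrow margins, and Cd83, at 0.08, overlapped. The member against the majority was Slco5a1, at −0.39 ± 0.61.

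The other inflammatory lists held few calls. Of 24 inflammatory cytokines 0 passed in either direction (limma; 3 higher and 0 lower at an unadjusted p below 0.05; edgeR called 0 and DESeq2 called 2 higher), with a median log2(fc) of 0.077, against 0.88 in LPS vs. Ctrl. Of 15 NF-κB subunits and inhibitors 0 passed (limma; 2 higher and 0 lower at an unadjusted p below 0.05; edgeR 0 and DESeq2 1 higher), with a median of 0.065. Of 23 feedback inhibitors of LPS signalling 0 passed with limma, edgeR or DESeq2 (5 higher and 0 lower at an unadjusted p below 0.05), with a median of 0.048. Among 9 CC chemokines, Ccl22 was higher and Ccl6 lower. Aβ+LPS libraries lay wholly above in 5 of the cytokines (20.8%), 5 of the NF-κB genes (33.3%) and 6 of the feedback inhibitors (26.1%). The same held for 3 of the CC chemokines (33.3%), against 7.16% of all genes tested. In that order, 1 (4.17%), 0, 2 (8.70%) and 2 (22.2%) lay wholly below, against 6.66%. In LPS vs. Ctrl the medians of the NF-κB and feedback lists were 0.31 and 0.38.

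Transcripts of the LPS receptor were at like levels in both groups. Tlr4, picked out after its values were seen, was at 3114, 3288 and 3448 counts in Aβ and at 3130.4, 3070.3 and 3356 in Aβ+LPS [log2(fc) = −0.04 ± 0.05, adjp = 0.964, 95% interval −0.15 to 0.06]. Cd14, the co-receptor that hands LPS to TLR4, was at 62740.4, 62361 and 58308 counts in Aβ and at 63676, 60173 and 64538 in Aβ+LPS [log2(fc) = 0.04 ± 0.05, adjp = 0.965]. Both overlapped between the groups. Cd14 had a mean of 4975 counts in Ctrl and 11452 in LPS, so its Aβ level was 5.34-fold the LPS level. Ly96 (MD-2) and Myd88 had log2(fc) of −0.004 and −0.002. Of the 19 genes of the LPS receptor complex and its adaptors, 0 passed with limma, edgeR or DESeq2, 1 was higher and 0 lower at an unadjusted p below 0.05, and the median was 0.0099.

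Antigen presentation genes named in the study were tested too. The class II transactivator Ciita was at 767, 779 and 719.8 counts in Aβ and at 905, 827 and 876 in Aβ+LPS [log2(fc) = 0.20 ± 0.07, adjp = 0.55]. The Aβ+LPS libraries were all higher. H2-Eb1 and H2-Ab1, chains of MHC class II, had log2(fc) of 0.08 and 0.01, and the co-stimulatory ligands Cd80 and Cd86 had 0.08 and 0.04, with adjp of 0.861 to 0.992 for the 4 genes. Of 19 MHC class II presentation genes 0 passed with limma, edgeR or DESeq2 (2 higher and 0 lower at an unadjusted p below 0.05), with a median of 0.032, and of 20 MHC class I presentation genes 0 passed with these tools (1 higher and 5 lower at an unadjusted p below 0.05), with a median of −0.035. Of 13 co-stimulatory ligands 0 passed with limma or edgeR, DESeq2 called 1 higher, 2 were higher and 0 lower at an unadjusted p below 0.05, and the median was 0.079.

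Of the 16 tested genes that the study names, 0 passed (limma; 2 higher and 1 lower at an unadjusted p below 0.05). Most of them were picked by the study on these libraries, so the directions of these are not independent evidence; the list also holds antigen presentation genes and the reference genes of its PCR. Fn1, the matrix protein fibronectin, was at 525, 568 and 570.2 counts in Aβ and at 743, 654 and 856 in Aβ+LPS [log2(fc) = 0.43 ± 0.10, adjp = 0.127]. Its groups did not overlap, and edgeR (adjp = 0.027), DESeq2 (0.0055) and the fit of 6 libraries (0.0034) called it higher. Ccl7, Card14, Tnfsf18, Bdkrb2, Ednrb, Cd226 and Tmc3 had log2(fc) of 0.12, −0.08, −0.10, 0.26, −0.00, −0.20 and 0.12, each with overlapping libraries. The reference genes Gapdh and Rplp2 had 0.06 and 0.01. Ccl8, Ltk and Fyb2 were under the filter, with means of 0.673, 0.337 and 4.93 counts in Aβ and 2.53, 0 and 4.30 in Aβ+LPS.

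**Figure D4:**
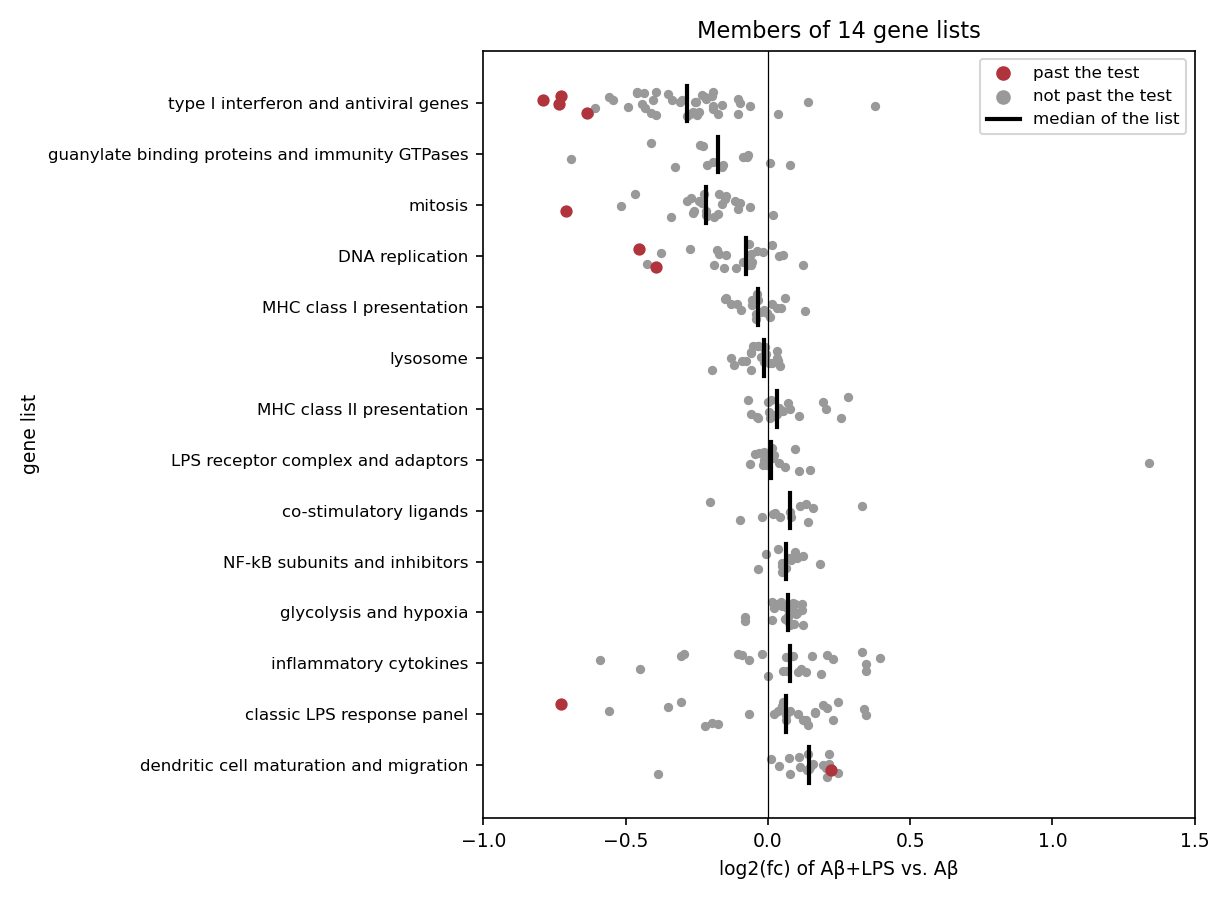
log2(fc) of Aβ+LPS vs. Aβ for the members of 14 gene lists; points are genes and the black line is the list median. The medians run from −0.28 for type I interferon genes and −0.22 for mitosis to 0.14 for dendritic cell maturation, with the inflammatory and presentation lists near 0.

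The size of the LPS response with and without oligomers was then compared. LPS vs. Ctrl, which shares no library with Aβ+LPS vs. Aβ, called 6521 of the 13806 genes (3358 higher and 3163 lower), with 937 over 1 and 233 under −1 on the log2 scale, and a median absolute log2(fc) of 0.23, against 0.065 with oligomers. The 95th percentile of the absolute log2(fc) was 1.43 without and 0.45 with oligomers. The test of the difference between both LPS effects, the interaction, passed for 4510 genes (32.7%), 2159 with a higher and 2351 with a lower effect in the presence of oligomers. Across the genes tested, the log2(fc) of both comparisons had a Pearson r of 0.11 and a Spearman rho of 0.12, given as a description, since genes are not independent replicates.

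Of the 937 genes that LPS alone raised by more than 1, with a median of 1.65, the oligomer-treated cells had 1 higher (Ccl22) and 1 lower (Irf7), or 0.213%, against 0.145% of all genes tested. In 161 of the 937 (17.2%) the Aβ+LPS libraries lay wholly above the Aβ libraries, against 7.16% of all, and in 37 (3.95%) wholly below, against 6.66%, and 66.2% of the values were positive, against 51.8% of all. Their median log2(fc) in Aβ+LPS vs. Aβ was 0.071, with quartiles of −0.060 and 0.21. The 95% interval lay within −1 and 1 for 645 of them (68.8%). In 628 of the 937 (67.0%) each Aβ library lay above each LPS library, against 31.5% of all genes tested. In 84 of the 937 each Aβ library lay below. The count filter used the means of Aβ and Aβ+LPS only. Genes higher in LPS than in Ctrl but low with oligomers, such as Ccl8 and Fyb2, were thus left out. This favours genes with Aβ above LPS, so both counts describe the filtered genes only. The interaction passed for 750 of the 937, all towards a smaller effect with oligomers. LPS vs. Ctrl is part of that difference and chose the 937 genes, so the count of 750 is a description. Of the 233 genes that LPS alone lowered by more than 1, 1 was higher and 3 were lower with oligomers, the median was −0.029, and in 134 (57.5%, against 29.1% of all) each Aβ library lay below each LPS library.

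**Figure D5:**
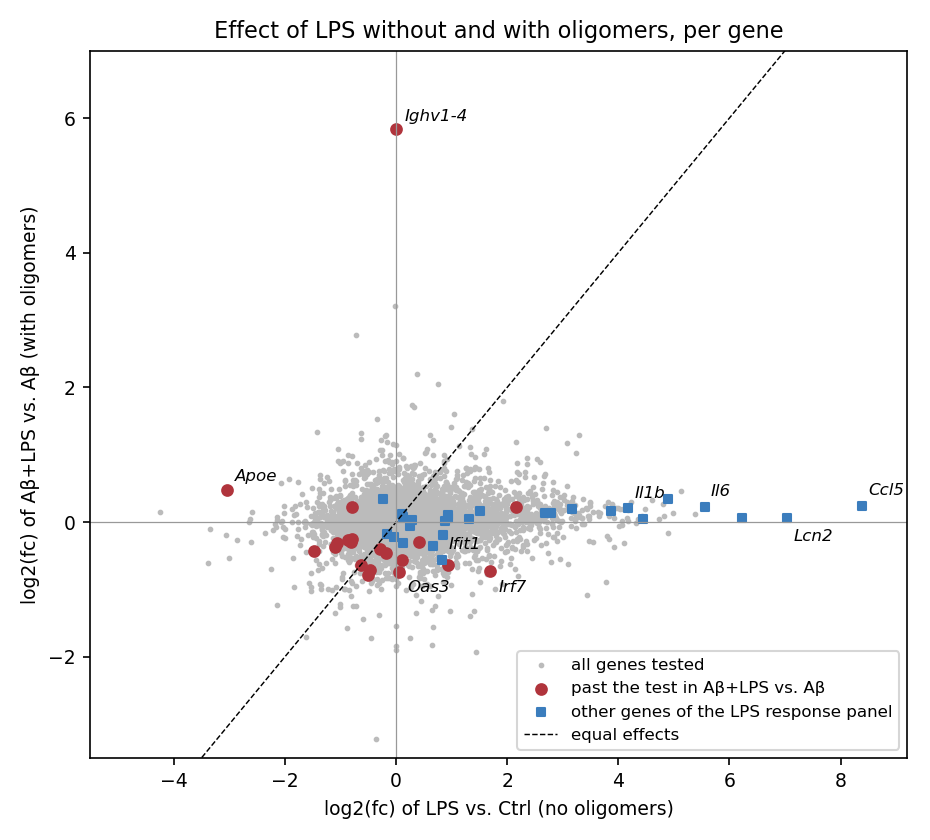
log2(fc) of LPS vs. Ctrl (horizontal) against log2(fc) of Aβ+LPS vs. Aβ (vertical) for 13806 genes in grey; red points passed the test in Aβ+LPS vs. Aβ, blue squares are the other tested genes of the LPS response list, and the dashed line marks equal effects. Ccl5, Lcn2 and Il6 lie at 8.39, 7.04 and 5.56 on the horizontal axis and at 0.24, 0.06 and 0.23 on the vertical axis.

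The most negative among genes with a mean of at least 100 counts in some group were Ccl5 (−8.14), Lcn2 (−6.98), Saa3 (−6.17), Il6 (−5.33) and Vnn3 (−5.26), the last a pantetheinase, and in each the LPS effect was large without oligomers and within 0.25 of 0 with them. The most positive were Cd5l (4.40), Apoe (3.53), Dmpk (3.25), C1qa (2.87) and Abcg3 (2.79). Cd5l, a secreted survival factor of macrophages, had a mean of 1715 counts in Ctrl and of 89.4 in LPS, and of 69.9 without and 78.1 with LPS among oligomer-treated cells. C1qa, a chain of complement C1q, had 852, 103, 46.9 and 40.5 in the same order. Both fell with LPS alone, and in the Aβ cells the level without LPS was already as low as that of LPS cells. Of the 20 genes past the test in Aβ+LPS vs. Aβ, 16 passed the interaction as well, against 32.7% of all genes tested. Aβ+LPS vs. Aβ is part of that difference and chose these genes, so this count is a description. Oas3 was at 1938 ± 253 counts (SD, n = 3) in Ctrl and 2000 ± 234 in LPS, with a log2(fc) of 0.05 there, and its interaction was −0.78. Oas2 had the same log2(fc) of −0.63 in both comparisons, and its interaction of −0.00 did not pass. Irf7 rose with LPS alone, from 522 ± 164 to 1644 ± 241 counts. In oligomer-treated cells it was lower with LPS, at 1473 ± 183 against 2429.9 ± 102, with an interaction of −2.42. Of the 16 genes lower in Aβ+LPS vs. Aβ, LPS vs. Ctrl had 3 as higher and 11 as lower, and of the 4 higher genes it had 1 as higher and 2 as lower. Over all genes tested, LPS vs. Ctrl had 24.3% as higher and 22.9% as lower.

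Levels of cell type and RNA quality markers were set beside these results. Summed neutrophil markers were at 2619.9 to 2733 CPM in Aβ and 2534 to 2603 CPM in Aβ+LPS, eosinophil markers at 14.1 to 16.5 and 12.5 to 13.9 CPM with Prg3 at 0, and mast cell and basophil markers at 47.0 to 48.8 and 52.3 to 56.1 CPM with Mcpt4, Tpsb2 and Tpsab1 at 0. Erythroid markers were at 196 to 220 and 233 to 246 CPM with 7 of 11 at 0, among them the globins Hba-a1, Hba-a2 and Hbb-bs. Only 1 of the 11 reached the count filter, so the erythroid sum rests almost wholly on 1 gene. Its log2(fc) was 0.18 here and 3.01 in LPS vs. Ctrl. Markers of fibroblasts and stroma were at 45.4 to 52.9 and 53.1 to 61.0 CPM, and those of osteoclasts at 2414 to 2454 and 2344 to 2396 CPM. None of the 6 pairs of ranges from neutrophils to osteoclasts overlapped. Of all genes tested, 7.16% lay wholly above and 6.66% wholly below. The ranges of T and NK cell markers, at 7.86 to 10.5 and 9.23 to 10.3 CPM, did overlap. So did those of macrophages, conventional dendritic cells and B-cells given above, whereas those of plasmacytoid dendritic cells, mostly reads of Bst2, did not. Mitochondrially encoded mRNA was at 14368 to 16594 CPM in Aβ and 16674 to 17334 CPM in Aβ+LPS, apart by a narrow margin, and ribosomal protein mRNA at 15454 to 16118 and 15785 to 16622 CPM, which overlapped. The part of these levels in the 20 calls was not tested.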

How the data were processed

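RNA sequencing of 12 BM-DC libraries, 3 per group, was analysed, with groups from the sample labels. Per the labels, the authors used TruSeq stranded mRNA libraries, FastQC 0.11.5, HISAT2 2.1.0 on GRCm38, featureCounts 1.6.0, DESeq2 and R 3.4.4. The deposited values are a normalised signal: counts per gene, scaled by the authors with a single factor for each library. Their own fold changes and p-values were not used. Values were whole multiples of 1 read (100% within 0.05), so reads were recovered for count tests.

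limma 3.58.1 (R 4.3.3; intensity trend, 12 libraries, group as the only term, 8 residual degrees of freedom, two-sided) was run on log2(value + 1) for genes whose mean reached 10 in Aβ or Aβ+LPS. Benjamini-Hochberg adjusted p-values (adjp) were taken over all 13806 genes at a threshold of 0.05; the scale understates changes of low genes. The interaction was (Aβ+LPS − Aβ) − (LPS − Ctrl). Alternatives were edgeR 4.0.16 (quasi-likelihood, TMM), DESeq2 1.42.0, a fit of 6 libraries, pseudocounts of 0.5 and 5, other filters and scalings, no intensity trend, a replicate block and leaving out each library. Scripts were tested on simulated data. The comparison, the 54 gene lists and the tests were chosen with earlier results of these data known.

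Named genes were the 15 highest and 15 lowest called with a mean of 100 or more, all of the LPS response list and of those the study names, up to 4 called members of other lists per direction, members against a list's majority, and the 5 highest and 5 lowest interaction values. The remaining called genes, and others where stated, were picked after their values were seen. For 1 gene of the lists no value of its own is reported here. The strand setting of the counter is not given in the sources used here.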

Additional observations from a re-analysis of the deposited data

Results flagged for a closer look

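The effect of LPS in oligomer-treated cells differed from that in cells without oligomers, by the interaction test of limma, for 63 of the 81 named genes, with 21 differences above 0 and 42 below 0 (log2(fc) of Aβ+LPS vs. Aβ minus that of LPS vs. Ctrl). The background for such calls was 32.7% of all genes tested. Among the named genes are the 5 highest and 5 lowest differences, which were chosen by this value, so the count of 63 is a description.

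Among cytokines, chemokines and effector enzymes the difference was −8.14 for Ccl5, −5.33 for Il6, −4.56 for Nos2, −4.39 for Il12b, −3.97 for Il1b, −3.71 for Ptgs2, −2.66 for Acod1, −1.94 for Ccl22, −1.04 for Cxcl10, −0.87 for Tnf and −0.83 for Ccl3, and it was 0.75 for Ccl6, 0.55 for Ccl7 and 0.51 for Spp1. Among secreted acute-phase proteins and enzymes it was −6.98 for Lcn2, −6.17 for Saa3 and −5.26 for Vnn3. Inhibitors and protective genes had −1.35 for Socs3, −1.26 for Tnfaip3, −0.86 for Sod2 and −0.32 for Il1rn.

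Interferon-stimulated genes had −2.47 for Ifi205, −2.42 for Irf7, −2.07 for Oasl1, −1.57 for Ly6a, −1.43 for Phf11d, −1.38 for Ifit1, −1.38 for Usp18, −1.02 for Isg15, −0.78 for Oas3, −0.78 for Xaf1, −0.71 for Ly6e and −0.40 for Bst2. Surface receptors and ligands had −2.98 for Ccr7, −2.55 for Cd40, −1.17 for Cd14, −0.69 for Cd80 and −0.39 for Cd86, against 1.04 for Mrc1, 0.60 for Cd93 and 0.30 for Tlr4. Ciita and H2-Eb1 had 0.63 and 0.59.

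Genes of growth had −0.66 for Rad51ap1, −0.28 for Rrm2 and 0.73 for Ccnd1. The remaining negative differences were −3.63 for Bdkrb2, −2.47 for Slco5a1, −1.96 for Nppc, −1.85 for Card14 and −1.69 for Tnfsf18. Nppc had no read in Ctrl and Bdkrb2 a mean of 2.08 counts there, so both values depend on the pseudocount. The remaining positive differences were 5.83 for Ighv1-4, which depends on the pseudocount since 3 groups had no read, 4.40 for Cd5l, 3.53 for Apoe, 3.25 for Dmpk, 2.87 for C1qa, 2.79 for Abcg3, 2.06 for Ednrb, 1.80 for Fn1, 1.45 for Tmc3, 1.01 for Lsp1, 0.55 for Mamdc2 and 0.45 for Rplp2. With 3 libraries per group single libraries were not tested as standing apart from their group.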

How the results depend on the processing

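Of the 81 named genes, 0 changed direction past a threshold under any of 24 alternatives. The 4 higher and 16 lower calls became 37 and 50 with only the 6 libraries, 17 and 30 with DESeq2, 9 and 20 with edgeR, and 1 and 0 without the intensity trend; the causes were not tested. Leaving out an Aβ or Aβ+LPS library gave 1 to 3 higher and 6 to 13 lower calls, and leaving out a Ctrl or LPS library, an alternative chosen after seeing the data, gave 3 to 5 and 12 to 31, with 31 lower without Ctrl replicate 2. Calls with a log2(fc) beyond 1 were 1 higher and 0 lower, 3 higher with 6 libraries, 0 higher and 1 lower with DESeq2, 1 lower with a replicate block, and 0 to 3 lower when a library was left out. With replicate numbers as a block, 5 genes were higher and 18 lower. Deviations of same-numbered libraries correlated at −0.009, 0.026 and 0.036, which cannot show whether these libraries shared an animal or culture. Neither other pseudocounts, filters nor scalings moved the counts of calls by over 1.5 times. With 3 libraries per group and a median SE of 0.083, changes of small size in low genes could pass unseen.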

Other observations

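Vasoactive peptide and histamine genes had positive values in 8 of 9 tested members in Aβ+LPS vs. Aβ. Of the 9, 0 passed with limma (1 higher and 0 lower at an unadjusted p below 0.05), edgeR, DESeq2 and the fit of 6 libraries each called 1 higher, the median log2(fc) was 0.21, and in 5 (55.6%, against 7.16% of all genes tested) the Aβ+LPS libraries lay wholly above. The called gene was Nppc, which codes for C-type natriuretic peptide and was picked out after its values were seen, at 358, 404 and 376 counts in Aβ and at 541, 465 and 526 in Aβ+LPS [log2(fc) = 0.43 ± 0.22, adjp = 0.824, limma].

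Lists of metabolism, lysosome and tolerance had medians near 0. Of 23 glycolysis and hypoxia genes 0 passed with limma, edgeR or DESeq2, 5 were higher and 0 lower at an unadjusted p below 0.05, 21 values were positive, 8 (34.8%, against 7.16% of all genes tested) had Aβ+LPS libraries wholly above, and the median log2(fc) was 0.072. Of 25 lysosome genes 0 passed with these tools, 0 were higher and 4 lower at an unadjusted p below 0.05, 7 (28%, against 6.66%) had Aβ+LPS libraries wholly below, and the median was −0.015. Of 18 co-inhibitory and tolerogenic genes 0 passed with these tools (4 higher and 2 lower at an unadjusted p below 0.05), and the median was 0.047. In 7 of the 18 (38.9%, against 7.16%) the Aβ+LPS libraries lay wholly above, and in 2 (11.1%, against 6.66%) wholly below.

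Cholesterol synthesis differed between both settings of LPS. Of its 23 tested genes 19 were lower in LPS vs. Ctrl, with a median log2(fc) of −0.59, where 22.9% of all genes tested were lower. In Aβ+LPS vs. Aβ 0 passed with limma, edgeR or DESeq2 (1 higher and 1 lower at an unadjusted p below 0.05), with a median of 0.036. The interaction passed for 19 of them, all above 0, against 15.6% of all genes tested. Ribosomal protein genes had a similar contrast: 71 of 82 were lower in LPS vs. Ctrl with a median of −0.36, and the median was 0.018 in Aβ+LPS vs. Aβ, with 68 passing the interaction above 0.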
